A study of Mus musculus with 6 samples.

Results

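Cytochrome P450 family 2 is the group of heme enzymes whose mouse genes carry the name Cyp2, a letter for the subfamily and a number. Its members were taken as all probes that were no controls and whose name on the array, or whose current symbol, had that form. This gave 60 of 55681 probes, for 45 of 34741 named genes. RefSeq annotation of GRCm38.p6 lists 47 protein-coding genes of the family, of which Cyp2a5, Cyp2c40, Cyp2c69 and Cyp2j12 had no probe under their own name. Gene expression had been measured in 3 normal livers and 3 liver tumors having a Ha-ras mutation. All 6 samples came from male C3H/HeN mice of 74 to 75 weeks, F2 offspring kept on a standard diet in the control arm of a project on gestational arsenic exposure, and the labels do not say whether a normal liver and a tumor came from one mouse. C3H mice develop liver tumors spontaneously, and a tumor sample holds whatever cells were dissected with it. Each RNA, carrying the dye Cy3, was put on a separate array of the type SurePrint G3 Mouse GE.

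These enzymes sit in the endoplasmic reticulum, mostly of hepatocytes, and insert an oxygen atom into drugs, steroids, fatty acids and solvents. Electrons reach them from NADPH-cytochrome P450 reductase, Por, with help from cytochrome b5. Many mouse Cyp2 genes stand in clusters of near-identical copies. Several are turned on by the drug-sensing receptors CAR and PXR, several differ between male and female livers under the control of growth hormone, and several are made mainly by the hepatocytes around the central vein.

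The unit used throughout is the expression value, the processed signal of a probe divided by the 75th percentile of all signals on its array. It can be compared between arrays for a given probe but not between probes. Folds and tests are on its log2 scale, tumor minus normal, and a gene is called when limma's adjusted p over all tested probes is under 0.05. A probe was tested when all 3 arrays of a group, or of both, showed it well above background, and a gene stands for its tested probe with the highest mean signal. The 3 normal livers lay on one slide and the 3 tumors on another, so that effects of slide and of tissue cannot be told apart. The labels do not say that the samples of a group came from separate animals, and the p-values measure the spread between these samples. Between 44.7% and 48.9% of spots were well above background and 0 were saturated. The median local background signal was 42 to 45 on the arrays of normal livers and 22 to 23 on those of tumors. Whether this difference moved the values or the detection of dim probes was not tested. The 8 hepatocyte markers tested were present in every sample, and their summed expression value overlapped between the groups, at 8432 to 9221 in normal livers and 8469 to 8897 in tumors. Of these, 1 was called, Apoa1, which was higher. Of 6 macrophage and Kupffer cell markers, 4 were lower in tumors, with a summed value of 56.5 to 94.8 in normal livers and 30.3 to 49.0 in tumors. The summed value of 6 endothelial markers, 1 of them lower, was 54.4 to 66.3 and 47.8 to 51.2. That of 6 cholangiocyte markers, with none of 4 tested called, was 2.33 to 2.93 and 1.89 to 2.19. That of 7 stellate cell and fibroblast markers, 1 higher and 3 lower, was 6.95 to 11.0 and 11.0 to 16.1. The lymphocyte and neutrophil marker sums overlapped between the groups, no marker of either list was called, and Cd8a and Mpo were not well above background on any array. The part of these cells in the results below was not tested. In such bulk tissue, fewer cells of a type and less RNA per cell cannot be told apart.

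Cyp2 transcripts were, on the whole, lower in the tumors, with a small set that was much higher. Of the 39 Cyp2 genes tested, 24 were lower, 7 were higher and 8 were not called, whereas 21.0% of all 18566 genes tested were lower, 13.1% were higher and 34.2% were called in either direction. A fitted change of 2-fold or more was seen in 21 of the genes that were lower, against 6.84% of all genes, and in 6 of those that were higher, against 7.80%. Of the 6, Cyp2a22 had a lower bound of only 1.46-fold. With normexp background correction Cyp2a22 and Cyp2s1 (log2 fold changes 0.21 and 0.61) did not reach 2-fold, nor did Cyp2c23, Cyp2d10 and Cyp2d11 among the lower genes. The median log2 fold change was -1.05 over the Cyp2 genes and -0.13 over all genes. The values of the normal livers and tumors did not overlap in 35 of 39 Cyp2 genes, against 51.8% of all genes. Cyp2b13 and Cyp2a22 passed the filter on background only through the tumors, and Cyp2c55, Cyp2g1 and Cyp2j5 only through the normal livers. With a signal well above background required on all 6 arrays, 34 Cyp2 genes were tested, and 22 were lower and 5 higher. Without normal liver 1, 2 or 3, 18, 17 and 18 Cyp2 genes were called in place of 31, and without tumor 1, 2 or 3, 31, 25 and 30. The remaining 6 genes were not tested. Cyp2b19, Cyp2b23, Cyp2c65, Cyp2c66 and Cyp2w1 were not well above background on any array, and Cyp2j11 was so in 1 normal liver and 2 tumors.

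The calls of the subfamilies ran in different directions, which was not tested between them. All 3 tested Cyp2b genes and 2 of 3 Cyp2a genes were higher, and all 11 tested Cyp2c genes were lower. Also called lower were 8 of 10 Cyp2d genes, 3 of 5 tested Cyp2j genes, and Cyp2e1 and Cyp2f2. The median log2 fold change was 3.56 in Cyp2b, 1.03 in Cyp2a, -1.03 in Cyp2d, -1.80 in Cyp2j and -2.95 in Cyp2c. One of the 7 higher genes, Cyp2u1, rested on a repeat-containing probe, and its other probes were lower, as described below. With probes of that kind left out, an alternative chosen after seeing the data, 6 genes were higher and 25 lower.

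**Figure D1:**
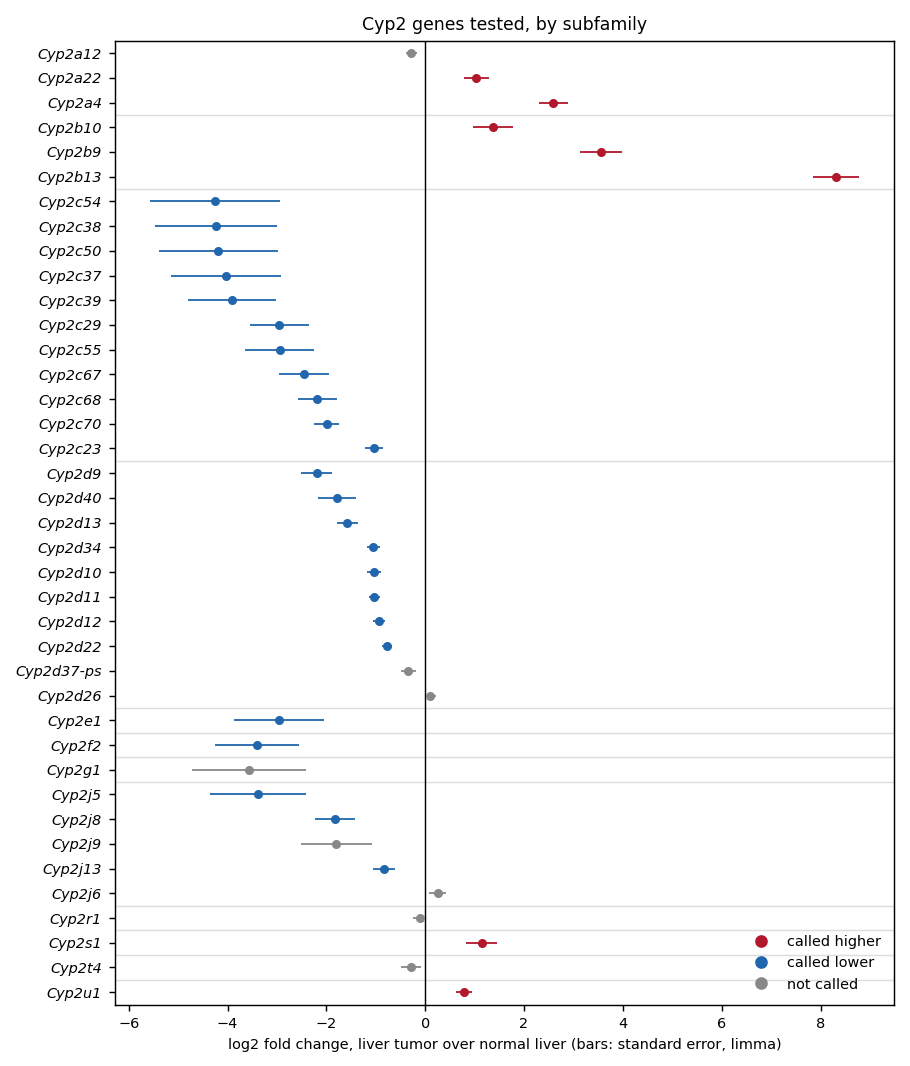
Log2 fold change of each of the 39 tested Cyp2 genes, tumor over normal, with limma's standard error as bars and genes grouped by subfamily. The Cyp2b genes and Cyp2a4 lie to the right of 0 and all 11 Cyp2c genes to the left. The points of Cyp2b13 and Cyp2a22 are fitted values against normal livers that were not well above background, for which the text gives lower bounds.

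The genes that rose most were Cyp2b13, Cyp2b9 and Cyp2a4, steroid hydroxylases and their relatives that are known to be made mainly in female mouse liver, here in tumors of male mice. They lie close together on chromosome 7, Cyp2b13 at chr7:26061388-26096197, Cyp2b9 at chr7:26173350-26210661 and Cyp2a4 at chr7:26307192-26315088 (GRCm38.p6). The promoters of Cyp2b9 and Cyp2b13 are printed because both genes rose and are near-copies around the transcript start as well. Over the 250 bases before the start of a RefSeq transcript, 248 bases were identical (99.2%) and 2 differed. Both stretches end past the gene starts given above, so that part of each lies within the gene as placed by RefSeq. Cyp2b9 is taken from chr7:26173159-26173408, plus strand, and Cyp2b13 from chr7:26061245-26061494, plus strand. Capitals mark the 2 bases that differ.
Cyp2b9: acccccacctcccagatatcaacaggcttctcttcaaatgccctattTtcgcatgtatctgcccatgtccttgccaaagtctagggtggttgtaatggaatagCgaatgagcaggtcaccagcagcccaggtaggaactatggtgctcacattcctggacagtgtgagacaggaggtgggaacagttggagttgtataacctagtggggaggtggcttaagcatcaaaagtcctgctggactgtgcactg
Cyp2b13: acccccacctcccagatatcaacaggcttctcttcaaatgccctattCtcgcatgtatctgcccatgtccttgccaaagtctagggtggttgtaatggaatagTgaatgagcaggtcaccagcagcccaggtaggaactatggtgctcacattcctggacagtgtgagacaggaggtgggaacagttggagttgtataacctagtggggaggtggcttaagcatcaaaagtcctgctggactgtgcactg

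Cyp2b13 had expression values of 0.0342, 0.0764 and 0.0312 in the normal livers and 24.6, 10.3 and 10.3 in the tumors. Its probe was well above background in none of the normal livers and in all 3 tumors, tumor 1 being the highest. Against the lowest signals well above background in the normal livers, the rise was at least 106-fold. The gene was called by the fitted log2 fold change of 8.31 (limma adjusted p = 0.000173), not by this bound. With normexp background correction the log2 fold change was 4.97, below that bound, so that the bound depends on the background correction.

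Cyp2b9 had 0.202, 0.666 and 0.411 in the normal livers and 4.70, 5.34 and 3.59 in the tumors. All tumors were above all normal livers, by a log2 fold change of 3.56 (SE 0.42, adjusted p by limma 0.00239), or 11.8-fold. With normexp background correction the log2 fold change was 2.49. Cyp2b10, the classic gene turned on by CAR, had 10.3, 30.1 and 26.6 in the normal livers and 51.0, 61.5 and 44.9 in the tumors. The groups were apart here too, with normal liver 1 lower than the others, and the change was smaller, with a log2 fold change of 1.37 (SE 0.41, adjusted p by limma 0.0435). Without any single tumor, or without normal liver 3, Cyp2b10 was no longer called, and without tumor 1 its adjusted p was 0.0875. The 250 bases before the transcript start of Cyp2b10 were 70.0% identical to those of Cyp2b9 and of Cyp2b13.

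Cyp2a4, a 15-alpha-hydroxylase of testosterone, had 104, 237 and 150.1 in the normal livers and 1105, 822 and 901 in the tumors. This was a log2 fold change of 2.60 (SE 0.30, adjusted p by limma 0.00217), or 6.04-fold. Its second probe had 23.6, 59.5 and 34.5 in the normal livers and 416, 264 and 323 in the tumors (log2 fold change 3.17), and on both probes tumor 1 was the highest and normal liver 1 the lowest. Cyp2a5, the coumarin 7-hydroxylase, is its near-copy. The upstream 250 bases of Cyp2a4 and Cyp2a5 were 97.6% identical, and no probe was named Cyp2a5, so the share of Cyp2a5 in the Cyp2a4 signal was not tested. The pair is shown with the 4 differing bases in capitals, Cyp2a4 from chr7:26306942-26307191, plus strand, and Cyp2a5 from chr7:26835089-26835338, plus strand.
Cyp2a4: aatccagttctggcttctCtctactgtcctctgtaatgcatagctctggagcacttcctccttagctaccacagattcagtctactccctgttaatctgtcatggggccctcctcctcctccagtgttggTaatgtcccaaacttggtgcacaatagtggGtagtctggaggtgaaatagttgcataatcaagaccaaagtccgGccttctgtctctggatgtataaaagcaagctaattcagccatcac
Cyp2a5: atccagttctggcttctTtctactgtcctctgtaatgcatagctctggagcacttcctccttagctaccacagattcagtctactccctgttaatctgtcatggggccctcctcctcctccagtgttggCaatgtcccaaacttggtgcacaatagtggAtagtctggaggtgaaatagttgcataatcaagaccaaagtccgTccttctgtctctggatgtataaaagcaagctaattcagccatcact

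Cyp2a22 had 0.0870, 0.121 and 0.0764 in the normal livers and 0.256, 0.183 and 0.147 in the tumors. No normal liver showed it well above background, and the rise was at least 1.46-fold. The gene was called by the fitted log2 fold change of 1.03 (limma adjusted p = 0.0246), not by this bound. That call was lost without tumor 1 (adjusted p = 0.0502), without tumor 2 and without normal liver 1 or 3. With normexp background correction the log2 fold change was 0.21 and it was not called (limma adjusted p = 0.245), so that the size of this rise, the bound included, depends on the background correction. Cyp2a12, a steroid hydroxylase, had 247, 283 and 279.8 in the normal livers and 219, 227 and 220.2 in the tumors. All tumors were below all normal livers, but the difference was not called (log2 fold change -0.28, limma adjusted p = 0.0912).

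Among the other genes of this stretch of chromosome 7, Cyp2s1, an enzyme of epithelia outside the liver that acts on retinoids and fatty acids, had 0.351, 0.388 and 0.356 in the normal livers and 1.35, 0.628 and 0.610 in the tumors. It rose by a log2 fold change of 1.14 (SE 0.31, adjusted p by limma 0.0335), or 0.61 with normexp, with tumor 1 more than the others. The call was lost without any single normal liver. Cyp2g1, known from olfactory tissue and named among the female-biased liver genes, had 1.28, 3.54 and 2.44 in the normal livers and 0.0265, 0.481 and 0.522 in the tumors. It thus lay below every normal liver in all tumors and was not well above background in tumor 1. It was not called (log2 fold change -3.56, limma adjusted p = 0.0564), and without tumor 1 its limma adjusted p was 0.0163. With normexp the log2 fold change was -1.93 and it was called (limma adjusted p = 0.00487). Cyp2t4 had 0.320, 0.210 and 0.276 in the normal livers and 0.262, 0.198 and 0.196 in the tumors, with overlapping groups (limma adjusted p = 0.305).

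Of the 7 genes listed as female-biased in mouse liver, 5 had a probe. Cyp2a4, Cyp2b9, Cyp2b10 and Cyp2b13 were higher, against 13.1% of all genes, and Cyp2g1 was not called, while Cyp2c40 and Cyp2c69 had no probe. Of 2 male-biased genes, Cyp2d9, the 16-alpha-hydroxylase of testosterone, was lower. The other, Cyp2u1, differed between its probes.

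**Figure D2:**
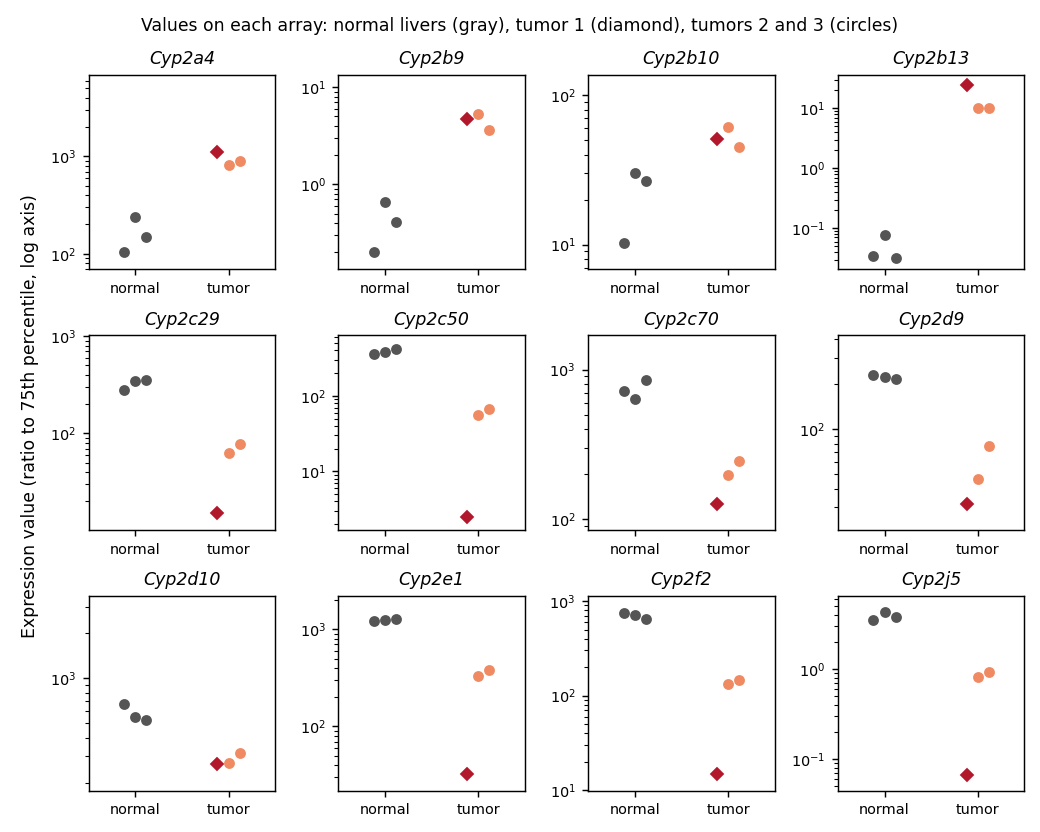
Expression values (ratio to the 75th percentile of the array, log axis) of 12 Cyp2 genes on each of the 6 arrays, with normal livers in gray, tumor 1 as a diamond and tumors 2 and 3 as circles. The groups are apart in all 12 panels, and tumor 1 is the lowest sample in each of the 8 genes that fell.

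The Cyp2c genes, which hydroxylate arachidonic acid, retinoids and many drugs, all stand on chromosome 19 and were lower without exception among the 11 tested. Each fell by 2-fold or more, and the log2 fold changes ran from -4.26 to -1.04. The median of -2.95 compares with -0.13 over all genes. The largest falls among them were those of Cyp2c54, Cyp2c38, Cyp2c50, Cyp2c37 and Cyp2c39. Cyp2c37, Cyp2c50 and Cyp2c54, like Cyp2c29, are known from hepatocytes around the central vein.

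Cyp2c54 (chr19:40037939-40073845), a microsomal oxidase of linoleic and arachidonic acid, had 335, 405 and 413 in the normal livers and 1.99, 59.6 and 67.7 in the tumors. Tumors 2 and 3 kept 15.5% and 17.6% of the normal level, the arithmetic mean of the normal livers, and tumor 1 kept 0.517%. The difference was a log2 fold change of -4.26 (SE 1.31, adjusted p by limma 0.0478). Its other probes had log2 fold changes of -3.25 and -4.69, the latter with tumor 1 not well above background.

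Cyp2c50 (chr19:40089679-40113955) had 354, 382 and 422 in the normal livers and 2.51, 56.6 and 66.4 in the tumors. All tumors were below all normal livers and tumor 1 stood far below the other tumors, with a log2 fold change of -4.19 (SE 1.21, adjusted p by limma 0.0395). Cyp2c37 (chr19:39992424-40012243) had 175, 181 and 212 in the normal livers and 1.64, 29.2 and 32.5 in the tumors. Tumor 1 was again far below the other tumors, with a log2 fold change of -4.03 (SE 1.11, adjusted p by limma 0.0344). A second probe, on which tumor 1 was not well above background, gave -4.17.

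Cyp2c38 had 257, 314 and 309 in the normal livers and 1.78, 42.7 and 48.8 in the tumors, with a log2 fold change of -4.24 (SE 1.23, adjusted p by limma 0.0400). Its second probe was not tested, being well above background in 1 normal liver and 1 tumor. Cyp2c39, a retinoic acid hydroxylase, had 33.1, 41.7 and 41.1 in the normal livers and 0.533, 5.01 and 6.19 in the tumors. This was a log2 fold change of -3.92 (SE 0.89, adjusted p by limma 0.0187), again with tumor 1 the lowest.

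Cyp2c29, a gene that CAR turns on, was measured by 10 spots and had 283, 348 and 356 in the normal livers and 15.3, 63.4 and 78.3 in the tumors. It fell by 2.95 on the log2 scale (SE 0.59, adjusted p by limma 0.0124). Cyp2c55, which makes 19-HETE from arachidonic acid, had 2.20, 3.61 and 1.37 in the normal livers and 0.106, 0.325 and 0.689 in the tumors. The groups were apart, tumor 1 was not well above background, and the difference was a log2 fold change of -2.95 (SE 0.70, adjusted p by limma 0.0210), or -1.75 with normexp.

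The other Cyp2c genes fell less, and tumor 1 was again the lowest sample in each. Cyp2c67 had a log2 fold change of -2.45 (-1.82 by its second probe), Cyp2c68 one of -2.18, Cyp2c70 one of -1.99 and Cyp2c23, which the array names Cyp2c44, one of -1.04. Cyp2c70, which makes muricholic acids from chenodeoxycholic acid, had 723, 635 and 846 in the normal livers and 127, 198 and 246 in the tumors (limma adjusted p = 0.00309). Cyp2c23, an epoxygenase of arachidonic acid, had 21.2, 25.8 and 28.5 in the normal livers and 9.74, 13.5 and 13.6 in the tumors (limma adjusted p = 0.00831).

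How many of the Cyp2c genes were called depended on single libraries. Without normal liver 1, 2 or 3, 5, 5 and 6 of them were called, and Cyp2c37, Cyp2c38, Cyp2c39, Cyp2c50 and Cyp2c54 lost the call each time. Without tumor 1, 2 or 3, 11, 9 and 11 were called. The direction was lower in all of these fits.

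Probes of near-identical genes may share signal. Probes were compared only with each other, and whether a probe matches the transcript of another gene was not tested. The values of Cyp2c37, Cyp2c38, Cyp2c50 and Cyp2c54, among others, may thus be in part those of near-identical genes. Among 1770 pairs of the 60 Cyp2 probes, 3 pairs matched at 36 or more bases when shifted by at most 20. Of these, 1 pair was of the same gene. The probes of Cyp2c67 and Cyp2c68 matched at 55 of 59 aligned bases, so that their values are uncertain as measures of separate genes. A window of 30 bases of each, from the array files, is shown, with the differing bases in capitals.
Cyp2c67: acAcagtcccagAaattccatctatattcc
Cyp2c68: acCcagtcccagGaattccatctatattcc

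The remaining pair joined 2 genes that moved in opposite directions. The second probes of Cyp2a4 and Cyp2c37 matched at 39 of 52 aligned bases, and the 13 that differed are in capitals.
Cyp2a4: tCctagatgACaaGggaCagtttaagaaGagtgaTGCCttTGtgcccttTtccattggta
Cyp2c37: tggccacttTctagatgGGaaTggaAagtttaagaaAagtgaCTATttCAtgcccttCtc
On these probes Cyp2a4 had 23.6, 59.5 and 34.5 in the normal livers and 416, 264 and 323 in the tumors. Cyp2c37 had 17.9, 20.3 and 22.9 in the normal livers and 0.124, 3.12 and 3.67 in the tumors. The former was higher in all tumors and the latter lower in all tumors, with tumor 1 not well above background on the Cyp2c37 probe.

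Promoter letters were compared across the family. RefSeq promoters of 250 bases were at hand for 40 Cyp2 genes, 42 in all, beside 32851 promoters of all genes, and each motif was searched on both strands. The letters CAAAGTCCA, a binding form of the hepatocyte factor HNF4, were in 6 of 42 Cyp2 promoters (14.3%) and in 0.384% of all promoters. The 6 belonged to Cyp2c40, Cyp2c65, Cyp2c67, Cyp2c68, Cyp2c69 and Cyp2c70, which are near-copies in part and not independent. Among the promoters of genes that were lower 3 of 20 held them, and among those of genes that were higher 0 of 6. The letters were absent from those of Cyp2c29, Cyp2c37, Cyp2c38, Cyp2c39, Cyp2c50 and Cyp2c55, which fell more than the 3 genes with them. The 3 are shown with the motif in capitals, its first base lying 125, 77 and 64 bases before the transcript start. Cyp2c67 is from chr19:39649143-39649182, minus strand, Cyp2c68 from chr19:39741154-39741193, minus strand, and Cyp2c70 from chr19:40187326-40187365, minus strand.
Cyp2c67: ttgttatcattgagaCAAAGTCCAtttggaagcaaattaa
Cyp2c68: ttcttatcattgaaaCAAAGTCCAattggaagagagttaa
Cyp2c70: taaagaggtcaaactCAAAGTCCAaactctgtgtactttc

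The TATA box letters TATAAA were in 18 of 42 Cyp2 promoters (42.9%) and in 12.4% of all promoters. They were in 11 of 20 promoters of genes that were lower and in 2 of 6 of genes that were higher. The nuclear receptor half-site AGGTCA was in 10 of 42 (23.8%) and 14.0%. It was in 5 of 20 promoters of genes that were lower and in 2 of 6 of genes that were higher. These 2 were the near-identical promoters of Cyp2b9 and Cyp2b13. The STAT5-type letters TTCNNNGAA were in 2 (4.76%) and 7.02%, and the C/EBP-type letters TTGCNCAA in 2 (4.76%) and 2.61%. The palindromic HNF1 site was in 0 of 42 and in 3 of all promoters. In the Cyp2c70 window the AGGTCA letters stand just upstream of CAAAGTCCA without overlap.

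**Figure D3:**
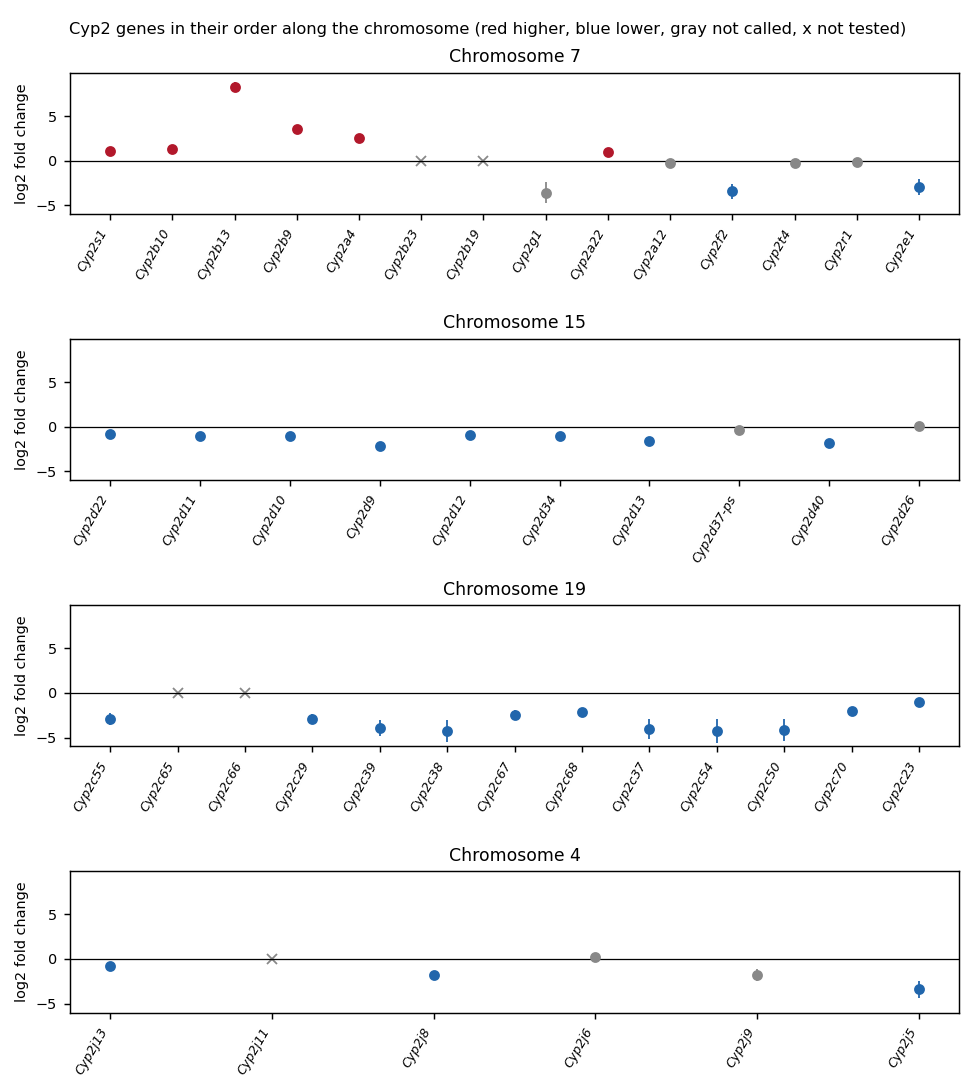
Log2 fold change (tumor over normal, bars are limma's standard errors) of the Cyp2 genes on chromosomes 7, 15, 19 and 4 in their order along the chromosome, with equal spacing and crosses at 0 for genes that were not tested. On chromosome 7 the run from Cyp2s1 to Cyp2a4 was higher and Cyp2f2 lower, and every tested gene on chromosome 19 was lower.

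Cyp2e1 and Cyp2f2, each the only gene of its subfamily, stand for the opposite ends of the liver lobule and both fell. Cyp2e1 (chr7:140763819-140774990), the ethanol and acetaminophen oxidase of hepatocytes around the central vein, had 1222, 1251 and 1265 in the normal livers and 32.8, 329 and 383 in the tumors. The tumors kept 2.63%, 26.4% and 30.8% of the normal level, with a log2 fold change of -2.96 (SE 0.90, adjusted p by limma 0.0467). Its second probe gave -3.36.

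Cyp2f2 (chr7:27119955-27133660), the naphthalene oxidase that marks hepatocytes around the portal vein, had 749, 707 and 651 in the normal livers and 14.8, 132 and 147 in the tumors. The tumors kept 2.10%, 18.8% and 20.9%, with a log2 fold change of -3.41 (SE 0.85, adjusted p by limma 0.0250). Both genes were called without tumor 1, with adjusted p of 0.000876 and 0.000476, and neither was called without any single normal liver. Cyp2e1 also lost its call without tumor 2.

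The list of pericentral Cyp2 genes held 6, of which Cyp2a5 had no probe. The other 5, Cyp2e1, Cyp2c29, Cyp2c37, Cyp2c50 and Cyp2c54, were all lower, against 21.0% of all genes. Their median log2 fold change was -4.03, against -0.13 over all genes. All but Cyp2e1 are Cyp2c genes, of which all 11 tested were lower. Cyp2c38 (-4.24) and Cyp2c39 (-3.92), which are not on the list, fell to a like extent. Of the 6 listed as turned on by CAR, 5 had a probe. Cyp2b10 was higher, and Cyp2c29, Cyp2c37, Cyp2c50 and Cyp2c55 were lower, against 13.1% higher and 21.0% lower among all genes.

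The Cyp2d genes, which stand in a cluster on chromosome 15 and oxidise amine drugs and steroids, were lower in 8 of 10, with log2 fold changes of -2.20 to -0.78 in those 8. Cyp2d9 (chr15:82452377-82456827) had 230.1, 225 and 215 in the normal livers and 31.8, 46.6 and 77.6 in the tumors. The groups were far apart, with a log2 fold change of -2.20 (SE 0.31, adjusted p by limma 0.00394). Cyp2d40 had 156, 153 and 114 in the normal livers and 21.6, 51.8 and 59.0 in the tumors (log2 fold change -1.79, limma adjusted p = 0.0156).

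Cyp2d10, Cyp2d11 and Cyp2d34 each had a log2 fold change between -1.05 and -1.03, and Cyp2d12 and Cyp2d22 had -0.93 and -0.78. A dimmer probe of Cyp2d34 gave -2.22. By the brighter probes of these 5 genes, tumor 1 differed from the mean of the other tumors by no more than 0.22 on the log2 scale. Cyp2d11, for example, had 1002, 891 and 926 in the normal livers and 428, 464 and 490.1 in the tumors (limma adjusted p = 0.00175). Cyp2d13, a transcribed pseudogene, was lower by 1.57 on the log2 scale, and Cyp2d37-ps, another, was not called (log2 fold change -0.34, limma adjusted p = 0.127).

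Cyp2d26 did not follow the cluster. It had 989, 927 and 998 in the normal livers and 1117, 1072 and 950.1 in the tumors. The groups overlapped, with a log2 fold change of 0.10 (SE 0.11, adjusted p by limma 0.512).

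The Cyp2j genes make epoxides of arachidonic acid, and 3 of 5 tested were lower. Cyp2j5, the main one of liver and kidney, had 3.52, 4.33 and 3.81 in the normal livers and 0.0667, 0.815 and 0.926 in the tumors. Tumor 1 was not well above background, and the difference was a log2 fold change of -3.39 (SE 0.97, adjusted p by limma 0.0389), or -2.17 with normexp. Cyp2j8 was lower by 1.83 and Cyp2j13 by 0.84, both on the log2 scale and each by its only tested probe. Their other probes did not pass the filter on background. With spike-in scaling Cyp2j13 was not called (limma adjusted p = 0.111).

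Cyp2j9 had 3.04, 3.18 and 3.02 in the normal livers and 0.250, 1.72 and 1.62 in the tumors. All tumors were lower, but the spread among them was wide and the gene was not called (log2 fold change -1.80, limma adjusted p = 0.101), whereas without tumor 1 the adjusted p was 0.00503. Cyp2j6 was not called by either probe, with log2 fold changes of 0.25 and -0.11.

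Cyp2r1, the vitamin D 25-hydroxylase, did not pass the test. It had 10.4, 11.1 and 8.79 in the normal livers and 8.75, 9.22 and 10.1 in the tumors, with overlapping groups (limma adjusted p = 0.571). Its probes had log2 fold changes of -0.11 and 0.22.

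Cyp2u1, a fatty acid hydroxylase on chromosome 3, showed opposite changes by its 3 probes, all of them called. The probe with the highest signal, which stands for the gene, had 359, 372 and 423 in the normal livers and 825, 612 and 572 in the tumors. By this probe the gene was higher, with a log2 fold change of 0.79 (SE 0.17, adjusted p by limma 0.0152). The other probes had 2.31, 2.67 and 2.22 in the normal livers and 0.764, 0.898 and 1.59 in the tumors, and 0.998, 1.03 and 0.961 in the normal livers and 0.230, 0.229 and 0.619 in the tumors. Both were lower in all tumors, with log2 fold changes of -1.22 (limma adjusted p = 0.0183) and -1.64 (limma adjusted p = 0.0205). Of the brightest probe 30 bases are shown, with the repeat of TG in capitals, and of the probe with the largest fall all 60.
Cyp2u1 brightest probe: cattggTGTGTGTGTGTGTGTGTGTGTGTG
Cyp2u1 probe with the largest fall: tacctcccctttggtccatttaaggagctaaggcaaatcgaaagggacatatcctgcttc
Across the whole array, 110 probes held 8 or more TG or CA units in a row, and 109 of them were tested. All 75 with TG were called higher, with log2 fold changes of 0.55 to 1.94 and a median of 1.22. Of the 34 tested probes with CA, 33 were called lower and 0 higher. The brightest Cyp2u1 probe is 1 of the 75.

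**Figure D4:**
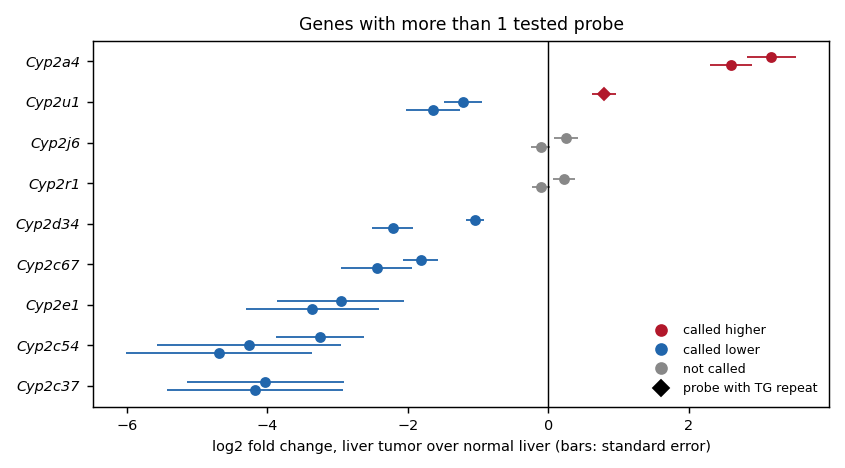
Log2 fold change (tumor over normal, bars are standard errors) of each tested probe of the 9 Cyp2 genes with more than 1. Probes of a gene lie on the same side of 0 in 6 genes, and Cyp2u1 is split between its TG repeat probe (diamond), which was higher, and its other probes, which were lower.

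Tumor 1, singled out after its values were seen, differed from the others in the genes that fell. It was the lowest tumor in 29 of 39 Cyp2 genes, against 35.7% of all genes, and in all 24 that were lower. It was at least 2-fold below the mean of tumors 2 and 3 in 16 of 39, against 557 of 18566 genes (3.0%). The median gap between tumor 1 and that mean was -0.68 on the log2 scale over the Cyp2 genes and 0.01 over all genes. Tumor 1 did not stand apart in the hepatocyte markers, whose summed expression value was 8740 there, within the range of the other tumors, or in the share of spots well above background, 48.3%. It had the highest sums of the tumors for neutrophil markers, 17.6 against a lowest of 5.31, for macrophage and Kupffer cell markers, 49.0 against 30.3, and for lymphocyte markers, 8.53 against 6.71. Such sums weigh the brightest probes most. Ly6g (1.10, against 1.41 and 1.60 in tumors 2 and 3) and Clec4f (2.86, against 4.90 and 6.94) were lowest in tumor 1. The other tested markers of these lists were highest there among the tumors. The part of these cells in the gap was not tested.

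Among genes well above background in every tumor, the gap was widest in Cyp2c54 (-4.999), Cyp2c38 (-4.68), Cyp2c50 (-4.61) and Cyp2c37 (-4.23), all on the log2 scale. In Cyp2c54 that left 0.517% of the normal level in tumor 1. In Cyp2g1, Cyp2j5 and Cyp2c55 tumor 1 was not well above background, and the size of their gap was not measured. The genes that were higher did not share the gap, and tumor 1 was above the mean of the other tumors in 6 of these 7, by 1.25 in Cyp2b13 and by 0.36 in Cyp2a4, Cyp2b10 being the exception at -0.04. Without tumor 1 the median over the Cyp2 genes was -0.98, 29 of the 31 called genes were still called, and 26 were lower and 5 higher.

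**Figure D5:**
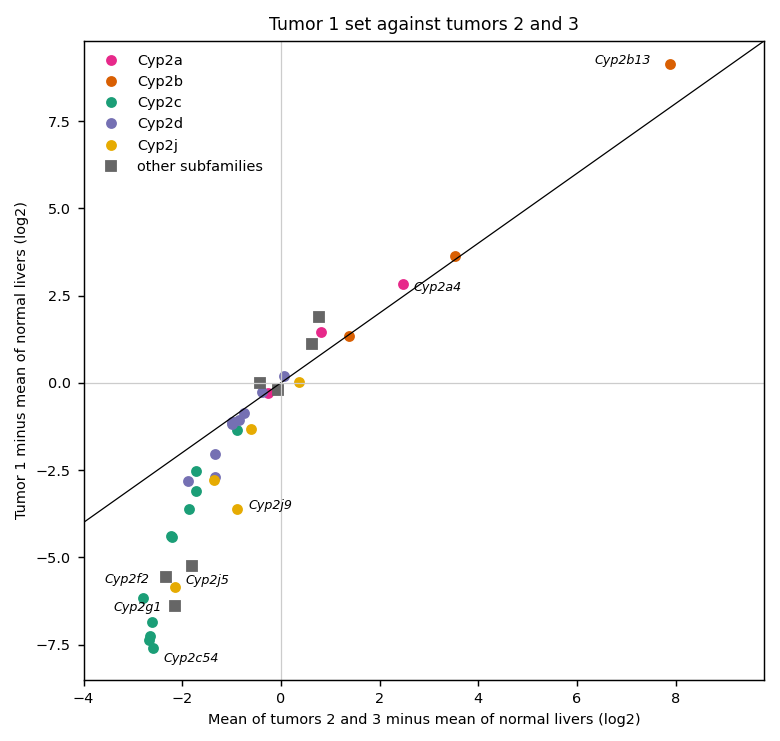
Change from the mean of the normal livers in tumor 1 (vertical axis) against that in the mean of tumors 2 and 3 (horizontal axis), both log2, for the 39 tested Cyp2 genes, with a line where both are equal. The genes that were lower lie under the line, with Cyp2c54 at a gap of -4.999 and Cyp2c23 at one of -0.48.

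Genes whose proteins serve these enzymes were set beside them. Of 21 genes for electron donors, heme synthesis and breakdown, and epoxide hydrolases, 9 were called (42.9%), against 34.2% of all genes. Of these, 8 were lower and 1 was higher, and the median log2 fold change over the 21 was -0.52, against -0.13 over all genes. Cpox, of heme synthesis, had 33.0, 45.0 and 33.7 in the normal livers and 6.71, 11.4 and 9.79 in the tumors. The groups did not overlap, with a log2 fold change of -2.02 (SE 0.23, adjusted p by limma 0.00209).

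Ephx2, which hydrolyses the epoxides that Cyp2c and Cyp2j enzymes make, had a log2 fold change of -1.75 (limma adjusted p = 0.00495), Cyb5a, cytochrome b5, one of -1.11 (limma adjusted p = 0.00462), and Pgrmc1, a heme-binding partner, one of -0.95 (limma adjusted p = 0.00532). Cyb5r1, a cytochrome b5 reductase, was the gene that rose, by 1.38 on the log2 scale (limma adjusted p = 0.00144). Por, named here after its values were seen, had 27.8, 39.8 and 41.2 in the normal livers and 28.9, 22.9 and 23.1 in the tumors. The groups overlapped and it was not called (log2 fold change -0.52, limma adjusted p = 0.0776). When arrays were scaled by spike-in controls, 5 partner genes of 21 were called in place of 9.

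Of 30 transcription factors and receptors known to act on Cyp2 genes, 29 were tested, and 11 were lower (37.9%) and 2 higher (6.90%), against 21.0% and 13.1% of all genes. The median log2 fold change was -0.40, against -0.13 over all genes. Cux2 was not tested. Nr1i3, which encodes CAR, had 26.5, 27.2 and 26.2 in the normal livers and 3.65, 6.94 and 5.66 in the tumors. All tumors were below all normal livers, with a log2 fold change of -2.35 (SE 0.23, adjusted p by limma 0.00131).

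Bcl6, a repressor of female-type liver genes in males, had 9.50, 25.6 and 25.1 in the normal livers and 1.45, 1.64 and 5.08 in the tumors. It was lower in all tumors, with a log2 fold change of -2.99 (SE 0.59, adjusted p by limma 0.0116). Onecut2 had 35.9, 35.8 and 37.9 in the normal livers and 0.862, 4.71 and 5.93 in the tumors (log2 fold change -3.66, limma adjusted p = 0.0101). Among the tumors, tumor 1 had the lowest value of Onecut2, Nr1i3, Bcl6 and Tbx3, as of 35.7% of all genes tested. Tbx3, a factor of pericentral hepatocytes, varied widely among the normal livers, with 5.60, 14.8 and 27.8 in the normal livers and 0.748, 2.08 and 2.31 in the tumors (log2 fold change -3.11, limma adjusted p = 0.0156).

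The genes that were higher were Nfe2l2, which encodes Nrf2, with 9.17, 11.6 and 13.5 in the normal livers and 26.0, 22.8 and 20.03 in the tumors (limma adjusted p = 0.00820), and Foxa3, with 4.33, 3.05 and 5.14 in the normal livers and 9.67, 6.34 and 7.36 in the tumors (limma adjusted p = 0.0303). Hnf4a, named here after its values were seen, had 170.1, 171 and 218 in the normal livers and 227, 199.7 and 194 in the tumors. The groups overlapped and it was not called (log2 fold change 0.16, limma adjusted p = 0.436). By the unpaired form of the methods' t-test, 6 of the 29 were called in place of 13, and without normal liver 2, 8.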

How the data were processed

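The authors labelled total RNA with 1 dye (Cy3), scanned SurePrint G3 arrays and extracted the spots with Agilent Feature Extraction, version 10.7.3.1 per the file headers and 12.0.3.1 per the submitters' processing notes. The deposited intensity, called the processed signal, had its background subtracted and spatial trends removed by that software. A second deposited table gives these signals as a ratio to each array's 75th percentile and served as an alternative.

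From the intensities, log2 values were computed and each array was centred on the 75th percentile of all its spots. Control spots and outlier flags were left out, spots of a probe were averaged, and 24898 of 55681 probes were tested after the filter on background. Limma 3.58.1 (lmFit and eBayes, R 4.3.3) compared the groups over all 6 arrays, two-sided, with Benjamini-Hochberg adjustment at 0.05, which called 8238 probes (33.1%). The fit was tested on simulated data. Lower bounds used, on each array, the dimmest signal still well above background, or the probe's value where that was higher. Names and positions came from RefSeq (GRCm38.p6) by accession for 27235 probes, symbol for 3581 and synonym for 565, and 24300 kept the design's name. Python 3.11.15 and Biopython 1.88 were used for tables and promoter alignments.

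The members and lists were chosen with earlier results of these data known. Full values were given for the called genes with the largest changes, for members of the sex-biased, CAR and zonation lists and for subfamilies of 1 gene, and the rest by range and count. Alternatives were normexp with an offset of 50, quantile normalization, the percentile without controls, spike-in scaling, the deposited ratios, no or a stricter filter on dim probes, the mean of a gene's probes, eBayes with trend, the replicate number as a block, the methods' t-test unpaired and paired, and each array left out. Leaving out probes with TG repeats was added after seeing the data. The number of arrays limits the precision.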

Additional observations from a re-analysis of the deposited data

How the results depend on the processing

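Direction was kept by all 31 called Cyp2 genes that an alternative could fit, except Cyp2u1, which became -0.69 with the mean of its probes and -1.22 without TG repeat probes. Still called were 31 with the deposited ratios, the percentile without controls and eBayes with trend, 30 with normexp, 29 with spike-in scaling, 28 with quantile normalization and 27 of 27 with the stricter filter. The mean of a gene's probes moved the Cyp2 median to -1.57. Spike-in scaling moved the median of all genes from -0.13 to 0.05 and the share of lower calls among all genes from 61.5% to 37.7% (2458 higher, 1490 lower), and quantile normalization moved it to 52.4%, whereas Cyp2 calls were 76.7% lower with spike-in scaling against 77.4%. Spike-in scaling called 5067 probes and 5 partner genes. Without a filter on dim probes, 4674 probes, 17 Cyp2 genes (3 higher, 14 lower), 5 Cyp2c genes and 5 partner genes were called. The unpaired form of the methods' t-test called 5263 probes, 2 Cyp2 genes as higher, 22 as lower and 6 regulators. Its paired form, which is the one the paper's methods name, called 0 probes, 0 Cyp2 genes in either direction and 0 partners or regulators after adjustment. At an unadjusted p under 0.05 it gave 7420 probes, 27 Cyp2 genes (3 higher, 24 lower), 10 partners and 8 regulators, against 31 Cyp2 genes by limma after adjustment. The cause of these changes was not tested.

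Leaving out one array gave 4954 to 7172 probes, 17 to 31 Cyp2 genes (4 to 6 higher, 12 to 26 lower), 5 to 11 Cyp2c genes, 7 to 8 Cyp2d genes, 6 to 9 partners and 8 to 12 regulators, with a Cyp2 median of -1.16 to -0.98. The lowest Cyp2 counts came without a normal liver, 18, 17 and 18 called without normal livers 1, 2 and 3, of which 13, 12 and 14 were lower, and 4 were higher without normal liver 3. In a fit with the replicate number as a block, 32 Cyp2 genes were called, 25 lower and 7 higher, Cyp2g1 being the addition (adjusted p = 0.0260), and 7020 probes were called. Deviations of same-numbered samples correlated at 0.0688, 0.132 and 0.0506. Samples 1 and 2 correlated best with their own number. Normal liver 3 correlated slightly better with tumor 1 (0.0541), and tumor 3 with normal liver 2 (0.0550). So few samples cannot settle whether they were paired, and the numbers were not taken as pairs. Signal over background limits Cyp2b13, Cyp2a22, Cyp2b9, Cyp2g1, Cyp2j5 and Cyp2c55, whose linear fold changes normexp made smaller by over 1.5 times, and the 6 genes that were not tested. On arithmetic means, as in the methods' t-test, the falls of Cyp2c54, Cyp2c50, Cyp2c38, Cyp2c37, Cyp2c39, Cyp2e1, Cyp2j5 and Cyp2g1 were smaller by over 1.5 times on the linear scale (Cyp2c54 -3.16 in log2).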
